A study of Mus musculus with 12 samples.

Results

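The genes described here are those of the urea cycle and of amino acid catabolism in the liver, 48 genes listed by symbol for their function. The list was made with earlier results of these data known. All 48 were present among the 24527 gene symbols of the count table, and all 48 were among the 13204 genes that passed a filter on low counts. They were measured by sequencing of messenger RNA from snap-frozen livers of 12 mice aged 39 weeks, bred from CF1 mothers and B6SJL fathers. Conception was natural or through in vitro fertilization (IVF), with females and males of both kinds, which gave 4 groups of 3 libraries: natural females, IVF females, natural males and IVF males. No genotype, drug or diet distinguishes the groups in the labels. The IVF groups differ from the natural groups by the procedure as a whole, whose steps cannot be told apart here. The series title names the question as how IVF affects adult liver pathways in each sex.

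Amino acids that are not used for protein lose their nitrogen in the liver, mainly by transamination to glutamate and release of ammonia. The urea cycle, which begins in the mitochondria of hepatocytes around the portal vein and ends in their cytosol, turns that ammonia into urea for excretion. The carbon skeletons are broken down along separate routes for each amino acid to fuel, glucose or ketone bodies. In rodents several of the enzymes, among them those that start the breakdown of tyrosine, tryptophan and serine, are known to be induced by fasting, glucagon and glucocorticoids.

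Total counts per library ranged from 6826534 to 27832271, and the 48 members held from 1.27% to 2.89% of them. Levels are given in CPM, the usual unit of counts scaled to library depth, here with TMM factors, and comparisons between genes use CPM per kilobase of exon. Of the 7 hepatocyte markers in the table, 0 were at 0 in all libraries, and albumin alone ranged from 44666 to 81524 CPM. The markers of fat tissue summed to at most 1.10 CPM in any library, those of lymphocytes to group means of 1.44 to 4.02 CPM and those of pancreatic acinar cells to group means of 14.3 to 32.1 CPM. IVF female replicate 1 and natural female replicate 2 had the lowest totals, and some counts and values are also given without them. Values given only with all 12 libraries can change too. Without these 2 libraries the log2 fold change of Otc for IVF in females went from 0.19 to 0.33. In bulk tissue, fewer cells of a type and less RNA per cell cannot be told apart.

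The length used was that of all annotated exons of a gene. Per kilobase of exon, the most abundant member was Mat1a, which makes S-adenosylmethionine, with a mean of 841 CPM per kilobase over the 12 libraries. Gnmt, which uses that product to methylate glycine, followed with 835 CPM per kilobase, and Hpd, the dioxygenase of the second step of tyrosine breakdown, with 759. Tat, the aminotransferase of the first step, had 463. Among the genes of the urea cycle, Cps1 had 448 CPM per kilobase and Arg1 had 432. Otc with 68.7, Slc25a13 with 62.6, Asl with 56.1, Slc25a15 with 47.9 and Nags with 19.6 CPM per kilobase lay well below these. At the other end stood Mccc1 of leucine breakdown with 3.39 and Ass1 with 0.575 CPM per kilobase. The longest coding transcript had 1404 bases for Hpd against 2128 of all exons, and 1035 against 1206 for Gnmt. For Mat1a both lengths were 3468 bases, and for Mccc1 they were 2455 and 10952. Arg1 had 1477 against 2228 bases, where Cps1 had 5555 by both, and Asl had 2413 against 4831, where Otc had 2997 against 4241. The order of Mat1a, Gnmt and Hpd and the place of Mccc1 thus depend on the length used. So do the order of Cps1, Tat and Arg1 and that of Otc and Asl.

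Ass1, which encodes argininosuccinate synthetase, the third enzyme of the cycle, had only 10 to 41 counts in any library, so that its level, from 0.499 to 4.30 CPM, is poorly determined. It lies on chromosome 2 from 31470207 to 31520672 (GRCm38, plus strand). Of the 50-base windows of its longest coding transcript, 55.3% also occur in the processed pseudogene Gm5424 on chromosome 10 (62071123 to 62072362), which was listed at 0 counts in all 12 libraries. How the counting treated reads that match more than 1 place is not given in the sources used here, so the low level of Ass1 is reported as uncertain. Another 16 members share at least 1 such window with other annotated genes, and 8 of these share at least 5% with a single gene: Bhmt (Gm5096, 56.9% of its windows), Bckdha (B3gnt8, 50.8%), Aldh4a1 (Gm21969, 45.0%), Got2 (Gm10874, 36.0%), Sds (Plbd2, 25.2%), Nags (Gm11586, 20.0%), Bcat2 (0610005C13Rik, 7.33%) and Mccc1 (Mccc1os, 6.23%). Glud1 shares 8.17% of its windows in all, with less than 5% in any single gene. The levels of these 8 genes are also uncertain to the extent that reads from shared windows were dropped or shared. Windows were compared between annotated transcripts on both strands, and genes that overlap in the genome were not excluded. A shared window thus need not mean a second place in the genome.

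The urea cycle begins with Cps1, the mitochondrial carbamoyl phosphate synthetase (chromosome 1, 67123026 to 67231259). It had 3351, 2235 and 1825 CPM in natural females and 3126, 2009 and 3961 CPM in IVF females. In males it had 3708, 1688 and 2908 CPM after natural conception and 1654, 2077 and 1330.0 CPM after IVF. The female groups overlapped throughout, and in males the highest IVF library lay above the lowest natural one. The log2 fold change for IVF was 0.30 ± 0.36 (SE) in females and -0.71 ± 0.36 in males, neither of which passed edgeR's quasi-likelihood test (adjusted p of 1 in both, Benjamini-Hochberg over all genes tested). The 95% interval in males ran from -1.496 to 0.068.

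Nags makes the N-acetylglutamate without which Cps1 is inactive (chromosome 11, 102145513 to 102149477). It had 71.6, 34.4 and 57.7 CPM in natural females and 35.3, 57.9 and 58.4 CPM in IVF females. The males had 58.4, 52.5 and 75.8 CPM after natural conception and 71.7, 50.7 and 42.3 CPM after IVF. The lowest female library of each mode of conception was the one of low total.

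Otc joins carbamoyl phosphate to ornithine (chromosome X, 10252305 to 10321024). It had 316, 471 and 161 CPM in natural females and 489.8, 257 and 338 CPM in IVF females. Among males it had 290.2, 219.6 and 277 CPM after natural conception and 211, 247 and 217 CPM after IVF. The males held to a narrower range than the females, whose highest values came from the 2 libraries of low total.

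Asl splits argininosuccinate into arginine and fumarate (chromosome 5, 130011258 to 130029247). It had 309, 238 and 197 CPM in natural females and 296, 214 and 324 CPM in IVF females. Males had 446, 177 and 279 CPM after natural conception and 229, 293 and 252 CPM after IVF. Natural males held both the highest and the lowest library of the 12.

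Arg1, the arginase that releases urea (chromosome 10, 24915221 to 24927484), had 838, 1259.8 and 671 CPM in natural females and 1381, 681 and 1123 CPM in IVF females. In male livers it had 1170.2, 812 and 1042 CPM after natural conception and 790.2, 981 and 797 CPM after IVF. All 4 groups overlapped.

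The cycle depends on a pair of carriers of the inner mitochondrial membrane. Slc25a15, which exchanges ornithine for citrulline (chromosome 8, 22375551 to 22398597), had 276, 185 and 239 CPM in natural females and 234, 262 and 359 CPM in IVF females. In males it had 378, 252 and 311 CPM after natural conception and 263, 306 and 168 CPM after IVF. Slc25a13, which exports the aspartate that supplies the second nitrogen of urea (chromosome 6, 6041218 to 6217173), was the steadiest of the 8, with its highest library 1.64 times its lowest. It had 244, 219.7 and 214 CPM in natural females, 183, 281 and 263 CPM in IVF females, 300.1, 227 and 236 CPM in natural males and 238, 231 and 218 CPM in IVF males.

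**Figure D1:**
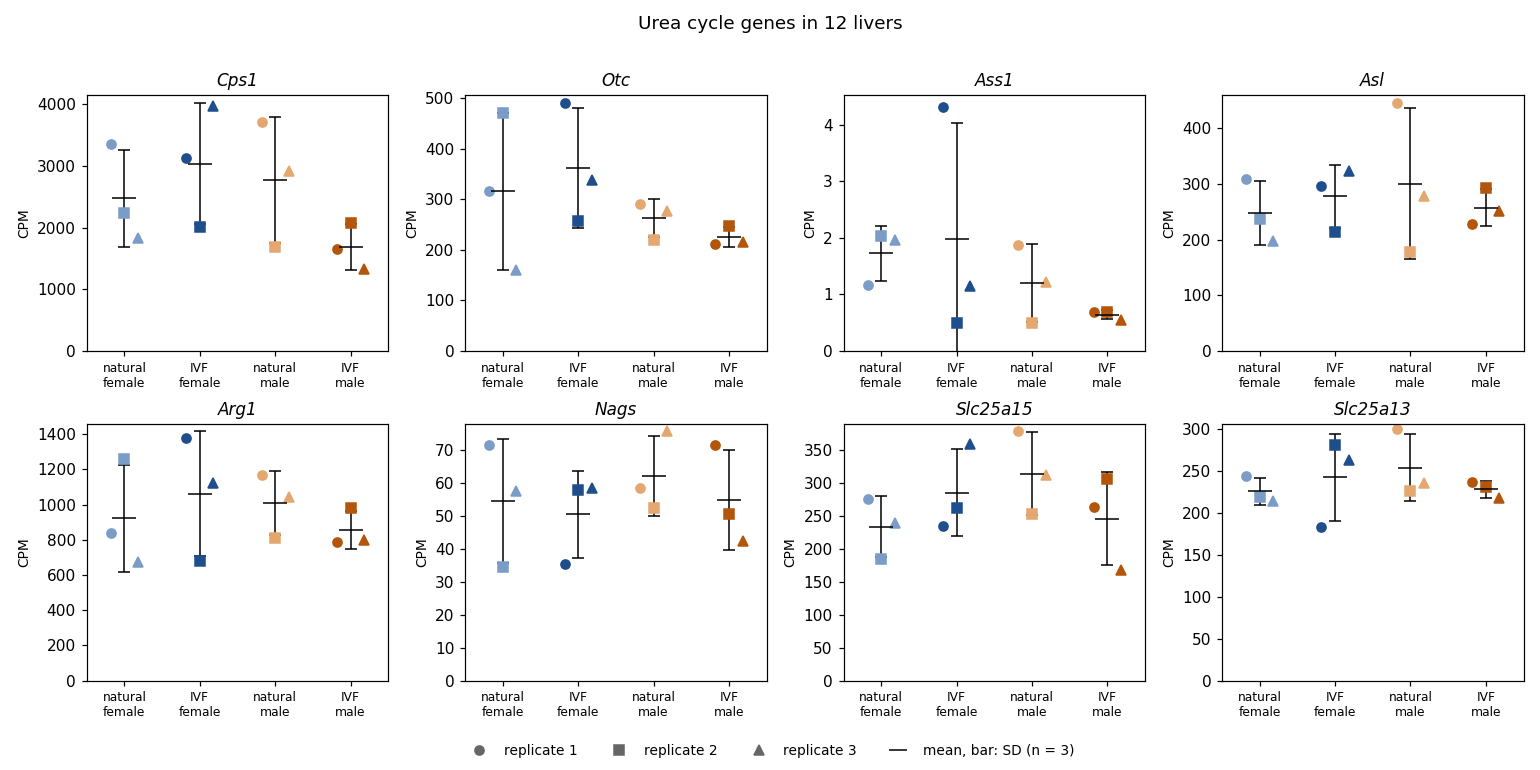
Level of the 8 urea cycle genes in each library (vertical axis, TMM-scaled CPM from 0) by group, with symbols for the 3 replicates, a dash for the mean and bars for the SD. Groups overlap for each gene between IVF and natural animals of the same sex, and the IVF female mean of Ass1 rests on replicate 1 at 4.30 CPM.

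Between IVF and natural animals, 0 of these 8 genes passed the test in either sex, by edgeR, DESeq2 or limma voom. In females 7 of 8 had a log2 fold change above 0, with a median of 0.18, and in males 0 of 8, with a median of -0.23. Several of these signs turned with single libraries. Without IVF female replicate 1 the values of Otc, Ass1 and Arg1 in females were -0.06, -1.02 and -0.01 and that of Nags was 0.11. Without natural female replicate 3 Otc was at -0.11, without natural female replicate 1 Nags was at 0.14 and Ass1 at -0.18, and without IVF female replicate 2 Slc25a13 was at -0.01. Ass1 in females was also below 0 with the total count alone (-0.05), with limma voom (-0.58), with a covariate for the 2 libraries of low total (-0.26) and without them (-0.90). In males Asl turned to 0.18 without natural male replicate 1. The summed level of the 8 genes was 4473 ± 1031 CPM (SD, n = 3) in natural females, 5313 ± 1386 in IVF females, 4971 ± 1468 in natural males and 3556 ± 588 in IVF males.

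The comparison with the most calls was that of males with females, averaged over both modes of conception. In it 4 of the 48 members passed the test, all lower in males: Agxt, Amdhd1, Hpd and Gldc. Of all genes tested 951 were called, or 7.20%, and 3.63% were called lower, so that the share of members called in either direction was near that of all genes. DESeq2 called 8 members, 6 lower and 2 higher in males (Kmo and Sdsl), of 12.8% of all genes. Limma voom called 5, all lower, of 7.09%. The 4 genes come from 3 routes, the breakdown of glyoxylate and glycine, of histidine and of tyrosine.

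For these 4 genes the 250 bases before the RefSeq start of each are shown, 5′ to 3′ on the strand of the gene (RefSeq table, GRCm38.p6). The windows are chr1:93134990-93135239 (plus strand) for Agxt, chr10:93540034-93540283 (minus) for Amdhd1, chr5:123182724-123182973 (minus) for Hpd and chr19:30175442-30175691 (minus) for Gldc. Capitals mark matches to the motifs listed after them.
Agxt: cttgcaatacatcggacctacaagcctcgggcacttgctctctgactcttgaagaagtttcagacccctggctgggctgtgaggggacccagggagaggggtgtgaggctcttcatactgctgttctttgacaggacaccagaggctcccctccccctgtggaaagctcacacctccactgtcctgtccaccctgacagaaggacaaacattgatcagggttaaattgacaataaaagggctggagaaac
Amdhd1: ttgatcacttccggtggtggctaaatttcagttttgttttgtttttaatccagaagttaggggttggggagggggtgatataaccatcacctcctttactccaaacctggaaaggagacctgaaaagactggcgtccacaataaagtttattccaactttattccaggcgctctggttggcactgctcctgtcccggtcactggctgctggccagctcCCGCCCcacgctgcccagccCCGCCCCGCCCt
Hpd: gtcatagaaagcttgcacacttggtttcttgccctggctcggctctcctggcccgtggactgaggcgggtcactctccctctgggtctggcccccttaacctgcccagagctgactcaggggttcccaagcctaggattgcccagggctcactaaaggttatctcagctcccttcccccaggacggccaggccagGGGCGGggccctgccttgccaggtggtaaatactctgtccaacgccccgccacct
Gldc: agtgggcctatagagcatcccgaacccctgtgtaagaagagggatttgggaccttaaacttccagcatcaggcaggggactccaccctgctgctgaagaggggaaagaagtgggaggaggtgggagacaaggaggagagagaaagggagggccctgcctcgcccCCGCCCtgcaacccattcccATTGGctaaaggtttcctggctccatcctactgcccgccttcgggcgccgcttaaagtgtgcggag
The motifs searched, on both strands, were the TATA box (TATAAA), the CCAAT box (CCAAT), the GC box (GGGCGG), and sites for C/EBP (TTGCNNAA), STAT5 (TTCNNNGAA), the glucocorticoid receptor and HNF4. A GC box, which 32.7% of the 32851 promoters of the table hold, occurred once in Hpd, 55 bases before the start, and once in Gldc, 86 bases before it. Amdhd1 had 3 GC boxes, starting 32, 12 and 7 bases before the start, the last 2 of which overlap. Gldc also had a CCAAT box in reverse, 66 bases before the start, a motif found in 33.8% of promoters. The window of Agxt held 0 of the 7 motifs. No motif was common to the 4 windows, and the other shares were 12.4% for TATAAA, 9.56% for C/EBP, 7.02% for STAT5, 0.387% for the glucocorticoid receptor and 0.0335% for HNF4. Of the 48 members, 37 had a promoter in the table.

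Agxt converts glyoxylate, a precursor of oxalate, to glycine (chromosome 1, 93135240 to 93145421). It had 411, 384 and 230.4 CPM in natural females and 308, 313 and 344 CPM in IVF females. The males had 153, 196 and 238 CPM after natural conception and 185, 183 and 135 CPM after IVF. Natural male replicate 3 lay just above natural female replicate 3, the only overlap between the 6 females and the 6 males. Males were lower by a log2 fold change of -0.87 ± 0.18 (edgeR adjusted p = 0.0130), a level of 0.546 times that of females. The call held in all 21 other fits, with adjusted p-values from 5.8e-05 to 0.0392.

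Amdhd1, the imidazolonepropionase of histidine breakdown (chromosome 10, 93523338 to 93540033), had 194, 133 and 138 CPM in natural females and 133, 127 and 166 CPM in IVF females. Among males it had 78.9, 78.8 and 87.0 CPM after natural conception and 85.3, 125 and 73.1 CPM after IVF. Every male lay below every female, the nearest being IVF male replicate 2. The log2 fold change was -0.76 ± 0.16 (edgeR adjusted p = 0.0177), and it was called in all 21 other fits, with adjusted p-values from 0.000207 to 0.0488. Hal and Uroc1, the enzymes that precede it in the route, were 152 ± 30.5 and 314 ± 43.4 CPM (SD) in the 6 males against 245 ± 60.9 and 386 ± 80.6 CPM in the 6 females. Hal had an adjusted p of 0.0615 by edgeR and of 0.0125 by DESeq2.

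Hpd, which makes homogentisate from the keto acid of tyrosine (chromosome 5, 123171807 to 123182727), had 2145, 2108 and 1615 CPM in natural females and 1855, 2050.0 and 2165 CPM in IVF females. Males had 1437, 1232 and 1349 CPM after natural conception and 1059, 1429.9 and 947 CPM after IVF. The sexes did not overlap. Its log2 fold change was -0.68 ± 0.15 (edgeR adjusted p = 0.0214), and the call was lost in 4 of 21 other fits, with adjusted p-values up to 0.0623, namely without IVF male replicate 1, without IVF male replicate 3, without natural male replicate 2 and without natural male replicate 3.

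Gldc, the decarboxylase of the glycine cleavage system (chromosome 19, 30098447 to 30175429), had 252, 155 and 122 CPM in natural females and 124, 193 and 174 CPM in IVF females. In male livers it had 105, 96.3 and 112 CPM after natural conception and 91.5, 120.2 and 87.7 CPM after IVF. The sexes did not overlap, IVF male replicate 2 being the nearest male. This gave a log2 fold change of -0.74 ± 0.19 (edgeR adjusted p = 0.0390), and the call was lost in 9 of 21 other fits, with adjusted p-values up to 0.102. The partners of Gldc in the complex, Amt and Gcsh, had 44.1 ± 9.14 and 54.9 ± 11.9 CPM (SD) in the 6 males and 55.3 ± 22.6 and 55.8 ± 16.1 CPM in the 6 females. Neither passed the test.

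**Figure D2:**
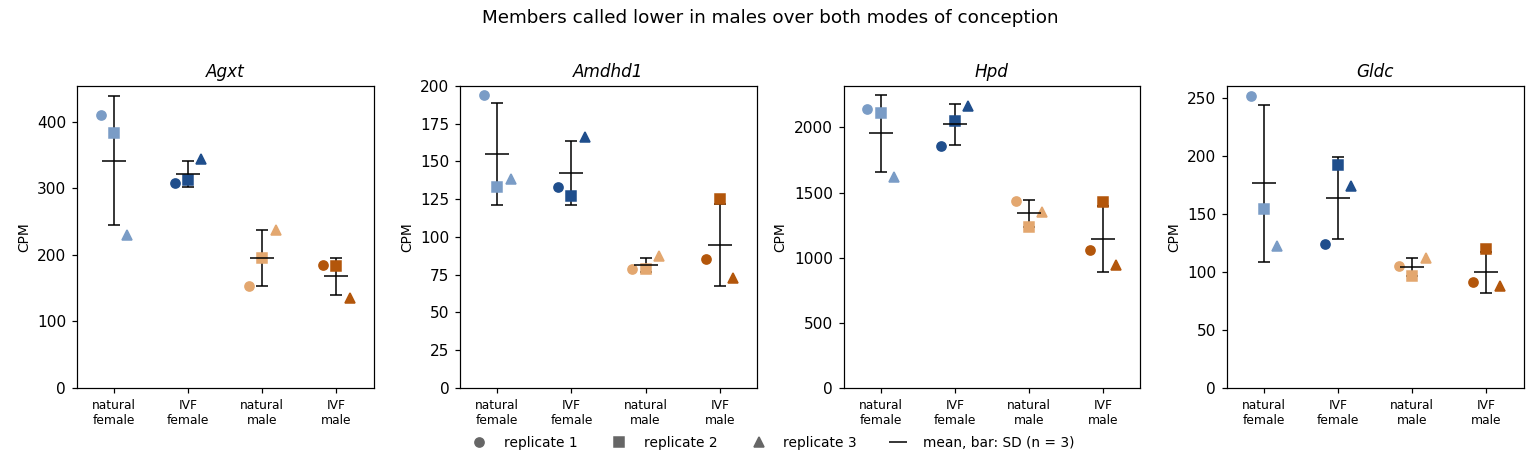
Level of the 4 members called lower in males (vertical axis, TMM-scaled CPM from 0) by group, with symbols for the replicates, a dash for the mean and bars for the SD. For Amdhd1, Hpd and Gldc each of the 6 male points lies below each of the 6 female points, and for Agxt natural male replicate 3 at 238 CPM overlaps natural female replicate 3 at 230.4 CPM.

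Over all 6 females and 6 males, no overlap in the lower direction was found for 3 of the 48 members, against 2.54% of all genes tested. Within natural animals alone 0 members were called by edgeR, of 1.77% of all genes, and 8 had an unadjusted p under 0.05, of 14.9%. DESeq2 called 3, of 5.13%, namely Kmo higher in males and Agxt and Amdhd1 lower, and limma voom 0, of 1.76%. Kmo, the kynurenine hydroxylase of tryptophan breakdown, had 181 ± 11.5 CPM (SD, n = 3) in natural females and 286 ± 10.4 CPM in natural males. Among IVF animals edgeR again called 0 members, of 2.19% of all genes, DESeq2 4 (Got1, Hpd, Agxt and Mat1a, all lower in males), of 5.46%, and limma voom 0, of 2.11%.

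Among IVF animals 40 of 48 members had a log2 fold change below 0 in males, where 49.3% of all genes did, with a median of -0.41 against 0.01 over all genes. In natural animals 21 of 48 were below 0, with a median of 0.06. With the total count alone 37 of 48 were below 0 there, with a median of -0.24, and without the 2 libraries of low total 25 of 48, with a median of -0.04. The difference between the modes is the interaction tested further on, in which 0 members were called. In the comparison among IVF animals 13 members were lower in males at an unadjusted p under 0.05, where 7.92% of all genes were. In the same comparison 13 members did not overlap in the lower direction, where 10.1% of all genes did not. Beyond the 4 genes above, the members lower at that level were Cps1, Got1, Hal, Bckdhb, Dbt, Mccc1, Mat1a, Bhmt and Aass, and their adjusted p-values lay from 0.0999 to 0.332. The largest fold change was that of Got1, the cytosolic aspartate aminotransferase, at 43.7 ± 22.6 CPM in IVF males against 154 ± 62.7 CPM in IVF females (SD, n = 3). In natural animals Got1 had 121 ± 41.2 CPM in females and 76.4 ± 42.2 CPM in males. Averaged over both modes its log2 fold change was -1.24 ± 0.35, which missed the threshold with edgeR (adjusted p = 0.0553) and passed with DESeq2 (0.00636) and limma voom (0.0458).

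Other cell and state markers moved with sex in the same livers. The 16 genes of the acute phase response had summed levels of 21276 to 68287 CPM in natural males and 16434 to 28425 CPM in IVF males, against 13994 to 19431 CPM in natural females and 16700 to 30614 CPM in IVF females. In the averaged comparison 12 of the 16 were higher and 4 lower in males, of which Saa1, Saa2, Saa3, Hp and Hpx were called higher and 0 lower. In natural animals 14 of 16 were higher in males, with 4 called, and in IVF animals 7 were higher and 9 lower, with 0 called and a median log2 fold change of -0.31. The 10 markers of Kupffer cells, the macrophages of the liver, summed to 403 to 613 CPM in females and to 206 to 422 CPM in males, and 4 of them, Clec4f, Vsig4, Timd4 and C1qb, were called lower in males. None of the 10 was at 0 in all libraries. Of 9 stellate cell and fibroblast markers Lrat and Dcn were called lower in males, and of 5 lymphocyte markers tested Cd79b was. Of all genes tested, 3.57% were called higher and 3.63% lower in males in the averaged comparison. The part of these differences in the results on the members was not tested.

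The number of members called changed with the scaling and with the libraries used. With DESeq2 size factors in place of TMM the same 4 members were called, beside 447 genes called higher and 479 lower. With the total count alone in place of TMM, the median over all genes of the log2 fold change moved from -0.01 to -0.22 in the averaged sex comparison, the calls over all genes went from 472 higher and 479 lower to 252 higher and 1373 lower, and 10 members were called, all lower, the 4 above among them. The same scaling gave -0.34 and -0.10 for all genes in natural and in IVF animals, and 88 higher and 422 lower, and 92 higher and 221 lower calls, where TMM had given 118 and 116, and 120 and 169. Without the 2 libraries of low total, or with a covariate for them, 6 members were called, the same 4 together with Tdo2, the first enzyme of tryptophan breakdown, higher in males, and Amt, lower. Leaving out IVF male replicate 1, IVF male replicate 3 or natural male replicate 3 left 2 members, Agxt and Amdhd1. Without natural female replicate 3 or IVF male replicate 2 there were 6.

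The first comparison of the study's own question is that of IVF with natural females. It gave 0 calls among the 48 members by edgeR, where 0% of all genes were called, 0 by DESeq2 (0.0303% of all genes) and 0 by limma voom (0%). At an unadjusted p under 0.05 there were also 0 members, where 3.70% of all genes were. Nor was there a member whose libraries did not overlap, where 7.42% of all genes did not. The members of smallest p were Mat1a, Fah and Tat.

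Mat1a (chromosome 14, 41105035 to 41124412) had 3357, 2188 and 2741 CPM in natural females and 3136, 3528 and 4892 CPM in IVF females. Its log2 fold change in females was 0.48 ± 0.26 (95% interval -0.09 to 1.05), or 1.40 times. IVF female replicate 3 was the highest of the 12 livers, and replicate 1 lay below the highest natural female.

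Fah, the last enzyme of tyrosine breakdown (chromosome 7, 84585159 to 84606722), had 364, 389 and 209 CPM in natural females and 456, 346 and 444 CPM in IVF females. The log2 fold change was 0.37 ± 0.24. In males it had 311, 311 and 361 CPM after natural conception and 252, 343 and 296 CPM after IVF, with a log2 fold change of -0.14 ± 0.24. The groups overlapped in both sexes.

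Tat (chromosome 8, 109990437 to 109999803) varied far more from liver to liver. It had 489, 669.7 and 477 CPM in natural females and 1841, 530.2 and 719 CPM in IVF females. The males had 3561, 741 and 1383 CPM after natural conception and 743, 1696 and 507 CPM after IVF. The highest value, that of natural male replicate 1, was 7.46 times the lowest, and in each of the other groups but natural females 1 library stood well above its neighbours. Its log2 fold change was 0.92 ± 0.62 in females and -0.95 ± 0.62 in males. The female value rested on IVF female replicate 1, without which it was 0.22, and it was 0.38 without both libraries of low total.

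In the second comparison, that of IVF with natural males, edgeR called 0 of the 48 members and 0.00757% of all genes, DESeq2 0 (0.0379% of all genes) and limma voom 0 (0%). An unadjusted p under 0.05 was reached by 0 members and by 2.69% of all genes. The members of smallest p were Cps1, given above, Bhmt and Bcat2. No overlap was found for 2 members, where 8.91% of all genes did not overlap: Bcat2, higher after IVF, and Gcsh, lower after IVF, with 47.3 ± 9.64 CPM (SD, n = 3) against 62.6 ± 9.15 CPM.

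Bhmt, which remethylates homocysteine with betaine (chromosome 13, 93616675 to 93637961), had 858, 1239 and 1848 CPM in natural males and 284, 1222 and 314 CPM in IVF males. This gave a log2 fold change of -1.12 ± 0.60 (95% interval -2.42 to 0.19), with IVF male replicate 2 inside the natural range. Without that library it was -2.14, and leaving out each of the other males gave values from -1.35 to -0.78. In females it had 1087, 1366 and 742 CPM after natural conception and 2062, 643 and 2294 CPM after IVF, a log2 fold change of 0.65 ± 0.59.

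Bcat2, the mitochondrial branched-chain aminotransferase, which is known as the form of tissues other than the liver (chromosome 7, 45570153 to 45589711), had 13.6, 18.7 and 19.9 CPM in natural males and 23.5, 21.1 and 23.1 CPM in IVF males. The log2 fold change was 0.38 ± 0.23 (95% interval -0.12 to 0.87). In natural females it had 21.3, 14.1 and 23.7 CPM and in IVF females 15.6, 20.99 and 22.4 CPM, the lowest of each group being the library of low total.

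The direction of the estimates differed between the sexes although no member was called. In females 36 of 48 members had a log2 fold change above 0, where 47.8% of all genes did, with a median of 0.17 against -0.01 over all genes. Without both libraries of low total 37 were above 0, with a median of 0.19. In males 43 of 48 were below 0, where 48.4% of all genes were, with a median of -0.22 against 0.01. The counts moved with single livers: in females 46 members were above 0 without natural female replicate 1 and 29 without IVF female replicate 3, and in males 13 were above 0 without natural male replicate 1, 12 without IVF male replicate 3 and 2 without IVF male replicate 2. Leaving out each library in turn gave medians from 0.04 to 0.28 in females and from -0.31 to -0.11 in males. With the total count alone the medians were 0.11 in females and -0.08 in males, beside -0.08 and 0.14 over all genes, and 30 and 13 members were above 0. Members of a route are measured in the same libraries and are not independent of each other, so these counts describe the 12 livers.

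**Figure D3:**
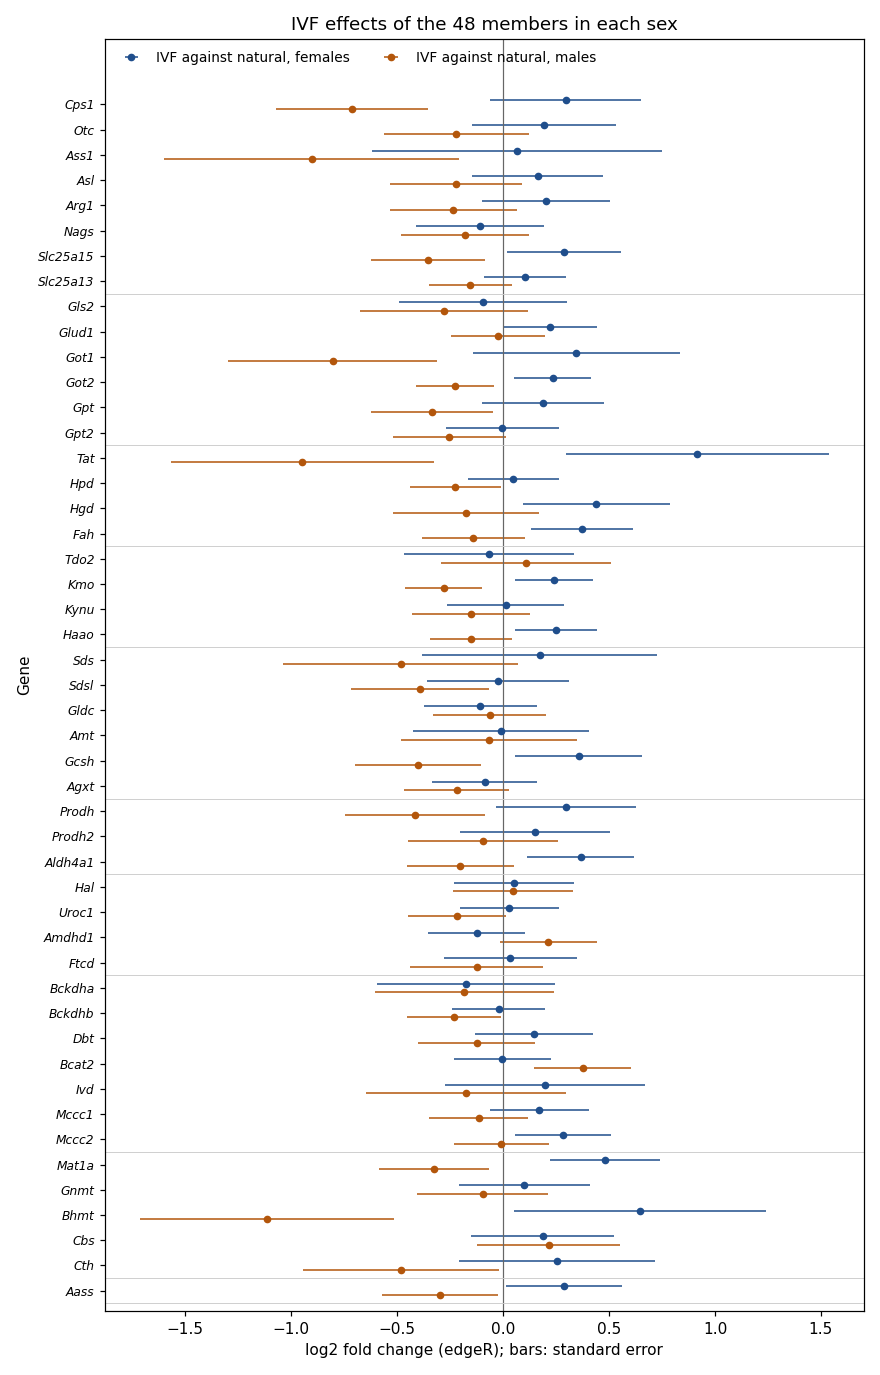
Log2 fold change for IVF against natural conception (horizontal axis, edgeR, bars: standard error) of each of the 48 members (vertical axis, grouped by role) in females (blue) and males (orange). In females 36 of 48 points lie above 0 and in males 43 of 48 below it, and 0 members were called in either sex.

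The difference of the IVF effects, males minus females, was tested as an interaction, and it is also the difference of the sex effects between the modes of conception. By edgeR 0 members were called, where 0% of all genes were, by DESeq2 0 (0.0682% of all genes) and by limma voom 0 (0%). An unadjusted p under 0.05 was reached by 1 member and by 3.87% of all genes. That member was Mat1a, with a difference of -0.81 ± 0.37 on the log2 scale (95% interval -1.61 to -0.001, unadjusted p = 0.0497). Tat followed with -1.87 ± 0.88 and Bhmt with -1.76 ± 0.84. Without IVF male replicate 2 these were -2.52 and -2.78, and Tat was at -1.17 without IVF female replicate 1 and at -1.03 without natural male replicate 1. A value below 0 was found for 43 of 48 members, where 46.4% of all genes were below 0, with a median of -0.33 against 0.03 over all genes. It was -0.14 with the total count alone, where the median of all genes was 0.23.

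Averaged over the sexes, IVF gave 0 called members by edgeR (0.00757% of all genes), 0 by DESeq2 (0.0303%) and 0 by limma voom (0%), and 0 members with an unadjusted p under 0.05, where 2.69% of all genes had one. The estimate was below 0 for 30 of 48 members, where 50.9% of all genes were, with a median of -0.02. With the total count alone it was below 0 for 22 of 48, with a median of 0.004. Without the 2 libraries of low total it was below 0 for 26 of 48. The members of smallest p were Bcat2 with a log2 fold change of 0.19 ± 0.16, Sdsl with -0.21 ± 0.23 and Agxt with -0.15 ± 0.17. Sdsl, a serine dehydratase-like gene (chromosome 5, 120458186 to 120472810), had 6.02, 3.60 and 3.88 CPM in natural females and 2.97, 4.16 and 6.03 CPM in IVF females. Among males it had 10.05, 5.84 and 11.2 CPM after natural conception and 8.10, 7.23 and 5.35 CPM after IVF. Its lowest library held 20 counts.

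The same livers showed other state markers moving with the male comparison. All 16 acute phase genes had a log2 fold change below 0 in IVF against natural males and above 0 in females. Of all genes tested, 48.4% were below 0 in males and 47.8% above 0 in females. Of the 16, 0 were called by edgeR and 11 had an unadjusted p under 0.05 in males, where 2.69% of all genes had one. All 10 Kupffer cell markers were also below 0 in males, with summed levels of 206 to 312 CPM after IVF and 384 to 422 CPM after natural conception. The 7 hepatocyte markers summed to 87697 to 103210 CPM in IVF males and 110360 to 111720 CPM in natural males. In females the Kupffer cell sums were 525 ± 100.5 CPM (SD, n = 3) after IVF and 449 ± 63.1 CPM after natural conception. The hepatocyte sums in females were 121020 ± 7511 and 113910 ± 6808 CPM in that order. The part of all these markers in the values of the members was not tested.

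The roles can be followed by their summed levels, given as mean ± SD over 3 libraries. The 4 genes of tyrosine breakdown (Tat, Hpd, Hgd and Fah) summed to 2998 ± 535 CPM in natural females, 3708 ± 670.0 in IVF females, 3756 ± 1597 in natural males and 2596 ± 942 in IVF males. All 4 had a log2 fold change above 0 for IVF in females and below 0 in males, with 0 calls. Hgd, which opens the ring of homogentisate, had 176 ± 86.6, 239 ± 56.8, 194 ± 33.8 and 172 ± 26.1 CPM in the same order of groups.

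The 5 genes of methionine metabolism (Mat1a, Gnmt, Bhmt, Cbs and Cth) summed to 5371 ± 901 CPM in natural females, 7215 ± 1755 in IVF females, 5444 ± 905 in natural males and 4096 ± 1380 in IVF males, the highest sum of any role. Gnmt had 1077 ± 119 and 1155 ± 176 CPM in natural and IVF females and 927 ± 282 and 867 ± 359 CPM in natural and IVF males. Cbs, which condenses homocysteine with serine, had 274 ± 125, 311 ± 89.0, 222 ± 35.6 and 257 ± 71.8 CPM, and Cth, which releases cysteine, 193 ± 128, 230.0 ± 89.5, 167 ± 45.4 and 119.8 ± 44.5 CPM in that order. The spread within groups exceeded most of the differences between them.

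The 6 genes of glutamine, glutamate and the transaminases summed to 2216 ± 336 CPM in natural females, 2494 ± 154 in IVF females, 2448 ± 507 in natural males and 2186 ± 297 in IVF males. Glud1, which releases ammonia from glutamate, was the steadiest of the 48, with its highest library 1.58 times its lowest, while Got1 was the most variable, at 10.1 times. Gls2, the liver glutaminase, had 249.5 ± 86.2, 234 ± 99.5, 194 ± 74.0 and 160.1 ± 39.4 CPM. The mitochondrial Got2 had 355 ± 55.2, 418 ± 18.4, 446 ± 40.4 and 381 ± 52.7 CPM, with a log2 fold change between the sexes of 0.10 ± 0.13 where Got1 had -1.24 ± 0.35. The alanine aminotransferases Gpt and Gpt2 had group means of 189 to 257 CPM and 262 to 392 CPM.

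For tryptophan, Tdo2 had 1165 ± 582 and 1113 ± 538 CPM in natural and IVF females and 1545 ± 409 and 1666 ± 344 CPM in males. The 2 female libraries of low total had a mean of 1770.3 CPM against 823 CPM in the other 4 females. Kynu and Haao, later in the route to NAD, had group means of 89.2 to 99.3 CPM and 188 to 228 CPM. In the serine and glycine group, Sds, the serine dehydratase, had 77.9 ± 29.6, 88.0 ± 42.3, 118 ± 72.9 and 84.0 ± 40.9 CPM in natural females, IVF females, natural males and IVF males.

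The branched-chain genes had low sums, 567 ± 101 CPM in natural females, 598 ± 72.8 in IVF females, 555 ± 108 in natural males and 505 ± 62.5 in IVF males. The subunits of the branched-chain keto acid dehydrogenase, Bckdha, Bckdhb and Dbt, had group means of 117 to 159.6 CPM, 48.8 to 69.2 CPM and 107 to 165 CPM. In the averaged sex comparison Bckdhb, Dbt and Mccc1 had log2 fold changes of -0.38 ± 0.16, -0.48 ± 0.20 and -0.42 ± 0.17 with adjusted p-values from 0.152 to 0.167. Ivd and Mccc2 of leucine breakdown had group means of 113 to 130.0 CPM and 41.9 to 53.9 CPM. The genes of proline breakdown, Prodh, Prodh2 and Aldh4a1, summed to 603 ± 67.6, 749 ± 115, 653 ± 147 and 558 ± 95.1 CPM in the order of groups above. Ftcd, the last enzyme of histidine breakdown, had group means of 233 to 305 CPM, and Aass, which starts lysine breakdown, of 229 to 379 CPM.

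Within each group 1 liver held the highest level of most members and another the lowest. Natural female replicate 1 was the highest of its group for 35 members, or 72.9%, where it was so for 32.8% of all genes tested, and replicate 3 was the lowest for 29, or 60.4%, against 29.2% of all genes. In IVF females replicate 3 was the highest for 60.4% and replicate 2 the lowest for 54.2%, against 31.7% and 26.6% of all genes. In natural males replicate 1 was the highest for 62.5% and replicate 2 the lowest for 77.1%, against 35.0% and 33.5%. In IVF males replicate 2 was the highest for 72.9% and replicate 3 the lowest for 70.8%, against 30.5% and 35.9%. The summed level of the 48 members ranged accordingly, with extremes of 16414 and 23160 CPM in natural females, 19655 and 27297 in IVF females, 17230 and 25525 in natural males and 13863 and 21484 in IVF males.

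**Figure D4:**
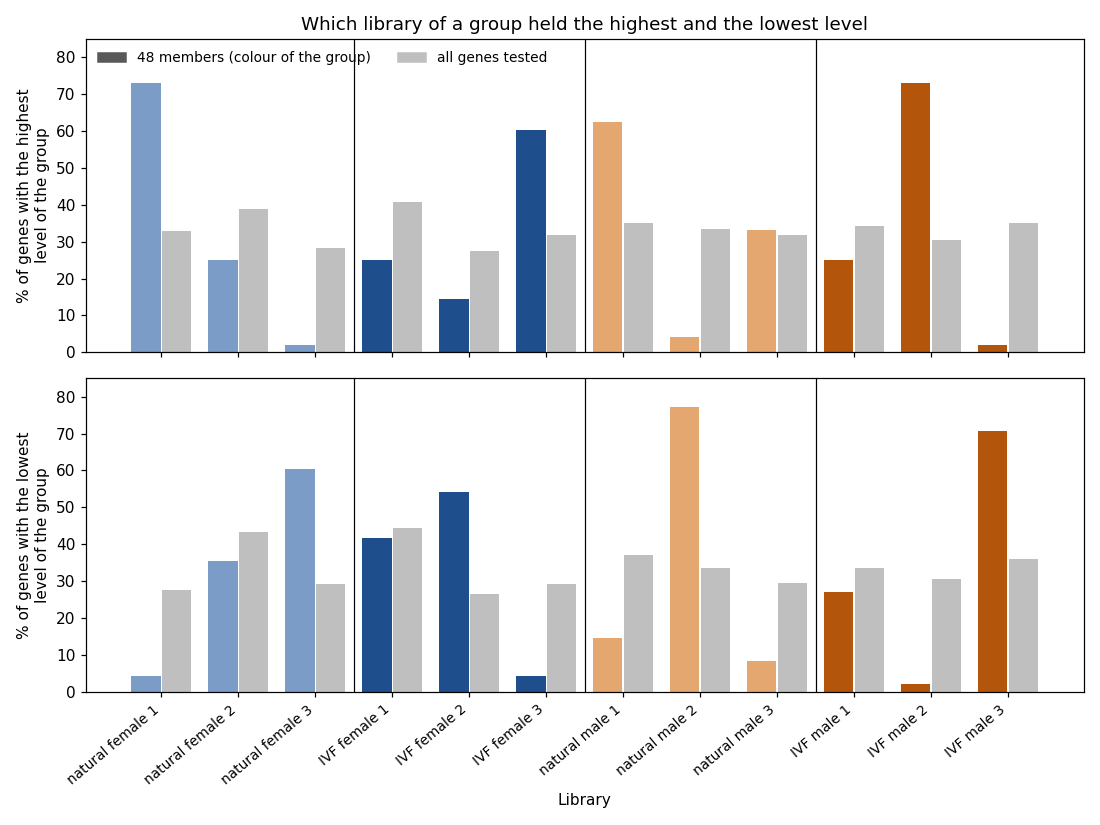
Share of genes (vertical axes, % from 0) for which each library was the highest (top) or the lowest (bottom) of its group, for the 48 members (coloured bars) and all genes tested (grey). In each group 1 library holds the highest level of 60.4% or more of the members, while the highest such share over all genes is 40.8%, in IVF female replicate 1.

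**Figure D5:**
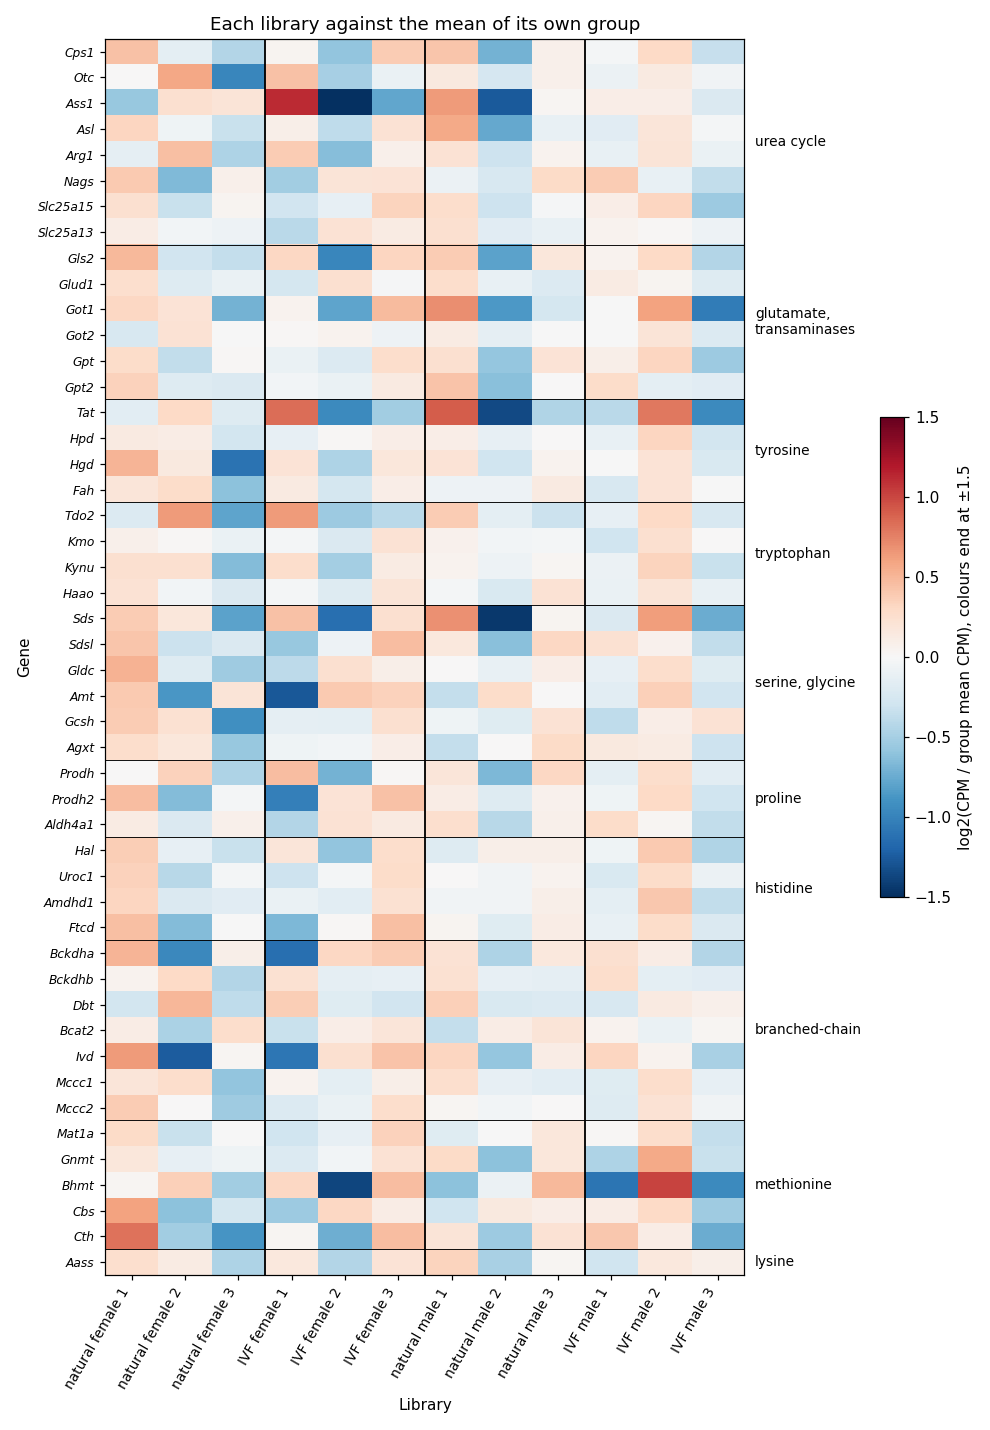
Log2 ratio of each library to the mean of its own group (colour, red above and blue below, ending at ±1.5) for the 48 members (rows, by role) in 12 libraries (columns). Natural male replicate 2 is blue in 37 of 48 rows as the lowest of its group, and the columns of IVF female replicate 1 and natural female replicate 2 differ among rows of the same role.

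The levels of 2 state lists varied in the same livers. The 13 genes of the fasting, glucocorticoid and glucagon response, scored as the mean log2 deviation from the mean of the 12 libraries, were at 1.16 in natural male replicate 1 and at -0.65 in natural male replicate 2. In IVF males they were at 0.46 in replicate 2 and -0.51 in replicate 3. In females the order was another: the score was -0.21 in natural female replicate 1 and 0.30 in replicate 3, and in IVF females 0.48 in replicate 2 and -0.09 in replicate 3. The acute phase score was 2.0 in natural male replicate 2. Their part in the levels of the members was not tested, and the time of day and feeding before collection are not given in the sources used here.

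Members richer in GC tended to be lower in the 2 female libraries of low total than in the other 4 females, with exceptions. Across the 48 members the log2 difference of these 2 libraries from the other females correlated with the GC content of the longest coding transcript with a Pearson r of -0.39 and a Spearman rho of -0.41, as a description across genes of the same libraries. Its median was -0.52 for the 10 members richest in GC and 0.20 for the 10 poorest. Ivd, Amt, Bckdha and Prodh2 were lowest there, with means of 54.4, 26.6, 60.3 and 66.2 CPM against 155, 69.7, 156 and 143 CPM in the other females. Their GC content was 51.1%, 50.1%, 57.9% and 58.3%, while Prodh, at 57.6%, was higher there by 0.68. Whether the relation holds over all genes was not tested.

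A further 88 gene symbols of these pathways were listed, for ammonia, phenylalanine, tryptophan, glycine, branched-chain, methionine and lysine metabolism and for their regulators. Mmut and Mut among them name 1 gene. Of the symbols, 87 were in the count table and 86 were tested. In IVF against natural animals 0 of the 86 were called in either sex, for the difference or for the average. In the averaged sex comparison 3 were called higher and 1 lower in males, where 7.20% of all genes were called, and in natural animals 1 higher, where 1.77% were. Neither share exceeds that of all genes, and the 4 are given as single genes. Asns, the asparagine synthetase, was higher in males by a log2 fold change of 4.09 ± 0.68 (edgeR adjusted p = 0.00449). It had at most 1.04 CPM in any female, and in males 1.01, 12.1 and 13.8 CPM after natural conception and 2.68, 1.67 and 3.90 CPM after IVF, so that natural male replicate 1 overlapped the females.

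Csad, which makes the precursor of taurine from cysteine, was higher in males by 1.46 ± 0.40 (edgeR adjusted p = 0.0486), with 330.9, 193 and 215 CPM in natural and 639, 425 and 503 CPM in IVF males against 32.2 to 263 CPM in females. Cebpb, a transcription factor that acts on these routes, was higher by 1.30 ± 0.34 (adjusted p = 0.0434), and Ppargc1a, a coactivator of the fasting response, was lower by a log2 fold change of -1.40 ± 0.38 (adjusted p = 0.0475). For IVF the further genes of smallest unadjusted p were Shmt1 and Agxt2 in females, with log2 fold changes of 0.58 ± 0.23 and 0.57 ± 0.23, and Asns and Csad in males, with -1.70 ± 0.76 and 1.08 ± 0.56. Agxt2, like Agxt, transfers an amino group to glyoxylate, and its difference between the sexes' IVF effects was -0.90 ± 0.33 without a call.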

How the data were processed

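Liver RNA was selected for poly-A and sequenced on an Illumina instrument, per the labels' protocols. The authors deposited whole-number counts per gene for 12 libraries. The submitters' processing notes name Trimmomatic 0.32, STAR 2.3.0e, featureCounts 1.5.0 and mm10. The counts were filtered with filterByExpr, scaled by TMM and fitted with edgeR 4.0.16 (R 4.3.3) as 4 group means. Contrasts were tested by quasi-likelihood with Benjamini-Hochberg adjustment over 13204 genes at 0.05. DESeq2 1.42.0 and limma 3.58.1 (voom) were alternatives, with other scalings, filters and left-out libraries. A count of 3, given as a floor that covers counting error only, corresponds to 0.108 to 0.439 CPM. It entered no filter or test. Litters and dams are not given in the sources used here. The titles of IVF female replicate 1 and IVF male replicate 2 share the number before the point, whose meaning the labels do not give, and all libraries were treated as independent. The p-values thus measure only the spread between these libraries.

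The 48 members and all gene lists were chosen with earlier results of these data known. Values per library are given for the 8 urea cycle genes, for members called in any contrast and for the 3 of smallest p in each IVF comparison, their difference and average, and the averaged sex comparison. Further pathway genes are named where called or among the 2 of smallest p in an IVF comparison. Gene positions and copies come from GENCODE M21 (GRCm38). The sequences shown were copied from the RefSeq promoter table. Another sequence is not reported here. Figures were drawn with matplotlib 3.10.9 under Python 3.11.15.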

Additional observations from a re-analysis of the deposited data

How the results depend on the processing

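Between IVF and natural animals 0 members were called under all alternatives run, in females, in males, for the difference and for the average. Over all genes, DESeq2 called 4 in females, 5 in males, 9 for the difference and 4 for the average, where edgeR called 0, 1, 0 and 1. Limma voom called 0 in males and 0 for the average, and leaving out each library in turn gave 0 to 1 in each of these. Between natural males and females, edgeR called 234 genes and 0 members. The counts were 442 and 1 at an adjusted p under 0.1, 510 and 2 with the total count alone, 678 and 3 with DESeq2, 458 and 1 with a covariate for the shallow libraries, and 139 genes with only the groups compared. Leaving out each library gave 111 to 263 genes. Between IVF males and females (289 genes, 0 members) they were 495 and 3 at an adjusted p under 0.1, 721 and 4 with DESeq2, and 438 genes with the covariate. Leaving out each library gave 137 to 348 genes and 0 to 1 members, the 1 without natural female replicate 3. In the averaged sex comparison (951 genes, 4 members) they were 1626 and 8 at an adjusted p under 0.1, 1625 and 10 with the total count alone, and 1693 and 8 with DESeq2. Leaving out each library gave 519 to 810 genes and 2 to 6 members. Log2 fold changes that turned sign, none of them called, were those for IVF in females of Ass1 (-0.051 with the total count alone, -0.58 with limma voom, -0.26 with the covariate, -0.90 without both shallow libraries). Leaving out each library gave -1.02 to 0.59 for Ass1, -0.11 to 0.60 for Otc, -0.012 to 0.49 for Arg1, -0.35 to 0.14 for Nags and -0.015 to 0.29 for Slc25a13, and in males -0.50 to 0.18 for Asl. Of 848 values of 39 member fold changes under alternatives, 814 kept their direction and side of the threshold. The cause was not tested. No paired analysis was possible because the titles of only 1 pair of libraries, IVF female replicate 1 and IVF male replicate 2, share a number, and a block needs at least 2 such pairs. Depth limits Ass1 most, with 10 to 41 counts.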
